A study of Mus musculus with 20 samples.

Results

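The comparison concerns celastrol-treated hypothalamus soon after treatment, at 6 h, and later, at 1 day and 4 days. Its members were 11 of the 20 arrays of the study, chosen by their treatment and time labels: 4 arrays at 6 h, set against 7 later arrays (4 at 1 day and 3 at 4 days). The other 9 arrays, 3 per time, came from mice given the solvent dimethyl sulfoxide (DMSO), and they supply the same time difference without celastrol. All mice were male C57BL/6J, put at 4 weeks of age on a diet with 45% fat for 16 weeks, which makes this strain obese, and every group carried that diet. Treatment was by injection into the peritoneum. The labels print a celastrol dose of 250 µg/kg beside the 6 h time alone, give 100 µl as the celastrol volume, and give 25 µl of DMSO per day. Arrays within a group are biological replicates by their titles, which do not say whether RNA was pooled. The labels do not give the number of injections, and an earlier time may also mean fewer injections and another hour of the day. Time, the number of injections, the dose as labelled and the hour of sampling therefore cannot be told apart here. Values are log2 intensities from Affymetrix whole-transcript arrays, and 14129 genes bright enough to be measured were tested.

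Celastrol is a triterpenoid from the roots of the thunder god vine that lowers food intake and body weight in obese rodents with intact leptin signalling. The hypothalamus reads leptin through its receptor, encoded by Lepr, on neurons that make the appetite-driving peptide NPY or the appetite-suppressing precursor POMC. It also holds the master circadian clock and starts the hormonal stress response, whose end product, the glucocorticoids, switches on genes such as Sgk1, Fkbp5 and Per1 in brain tissue. The design allows one question of the celastrol mice alone: which hypothalamic transcripts stood elsewhere at 6 h than at the later times.

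The tissue label was checked first. The 19 measured hypothalamus markers had a mean log2 intensity of 9.83 to 9.93 on the 6 h celastrol arrays and 9.85 to 9.93 on the later ones, so the ranges overlapped. Over the whole table the arrays' medians lay between 8.60 and 8.65. The 4 celastrol arrays at 6 h had medians of 8.596 to 8.605, and the 7 later ones had medians of 8.606 to 8.653, which did not overlap. Arrays 3 of the vehicle groups at 6 h and at 1 day stood apart from the rest on the leading component of the residuals, which held 25% of their variance, with scores of 11.4 and 9.61 against −6.13 to 5.32 for the other arrays. Neither array is a celastrol array, but both entered the shared estimate of the spread.

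Between 6 h and later, the celastrol hypothalamus differed in few genes, and the differences were small. The fatty acid carrier Fabp7, the transcription factor Pax6, the serotonin receptor Htr5b and a group of striated-muscle genes led by the cardiac actin Actc1 were higher at 6 h. The leptin receptor Lepr, the neighbouring genes Wdr83os and Wdr83, the clock repressors Cry1 and Per3 and 3 proteasome subunits were lower at 6 h. In limma's moderated test with Benjamini-Hochberg adjustment over all genes, 103 genes, 0.729% of those tested, passed an adjusted p of 0.05. Of these, 25 (0.177%) were higher at 6 h and 78 (0.552%) were lower. Before adjustment, 3013 genes had p under 0.05. Only Actc1 among the 103 differed by 1.5-fold or more, and the median size of a called difference was 0.222 on the log2 scale. In 89 of the 103 the 4 and the 7 arrays did not overlap, against 4.7% of all genes tested. The 103 were called from these same arrays, so their share follows in part from the choice and is not separate support.

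How many genes passed, and in which direction, depended on the scaling and on single arrays. Over all genes the median difference, 6 h minus later, was −0.0188. With every array centred on its median, 37 genes passed, 24 higher and 13 lower. With the arrays quantile normalized again, 81 passed, 47 higher and 34 lower. Without the filter on dim genes 33 passed, 16 higher and 17 lower. Of these 37, 81 and 33 genes, 31, 45 and 24 were among the 103 of the main fit. With the celastrol arrays alone, 107 genes passed as 3 times and 93 as 2 groups. Of those, 60 and 52 were among the 103, so the genes called changed more than the counts. Leaving out 1 array moved the count by over 1.5 times in 19 of 20 fits. It rose to 321 without vehicle 6 h replicate 3, to 284 without vehicle 1 day replicate 3 and to 199 without celastrol 1 day replicate 3. It lay between 9 and 63 in the other 16, lowest without celastrol 6 h replicate 2, and stood at 102 without celastrol 1 day replicate 4. With each array's median as a covariate 3 genes passed, and with the mean of the muscle genes as a covariate 2 did, both alternatives chosen after seeing the data. The array medians of 6 h and later celastrol did not overlap, so that covariate shares its variation with the time difference. The muscle mean includes the called genes Acta1 and Mb. Lost calls under these covariates therefore cannot tell what lies behind the calls. The differences themselves moved less than the counts: with the array median as a covariate Actc1 differed by 1.19, Myh6 by 0.511 and Lepr by −0.34, and with the muscle mean by 0.948, 0.409 and −0.245. Direction also went with brightness: 14 of the 25 genes called higher had a mean log2 intensity under 8, against 2823 of all 14129, and the 78 called lower had a median intensity of 9.70. With all genes split by brightness into 4 groups of like size, the median celastrol difference was 0.0476 in the dimmest. It was −0.0318, −0.0408 and −0.0237 in the brighter ones, so a list's median depends in part on its brightness.

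Fabp7 encodes the brain fatty-acid-binding protein of astrocytes and radial glia and gave the smallest adjusted p of the comparison. Its log2 intensity on the 6 h celastrol arrays was 12.82, 12.99, 12.77 and 12.88. At 1 day it was 12.13, 12.09, 11.96 and 12.02, and at 4 days it was 12.60, 12.78 and 12.73. The 1 day arrays were thus all far below those at 6 h, while 1 of the 3 arrays at 4 days lay just above the lowest 6 h array. Against all later arrays Fabp7 was higher at 6 h by 0.54 (SE 0.055, 1.45-fold, adjusted p = 0.000119), and against 1 day alone by 0.82 (SE 0.062, adjusted p = 8.1e-07). Against 4 days it differed by 0.16 (SE 0.067, adjusted p = 0.186). The vehicle arrays read 12.73, 12.68 and 12.93 at 6 h and 12.50 to 12.72 later, a difference of 0.20 (adjusted p = 0.177). The Fabp7 call passed in all 20 fits that left out 1 array, and was lost with the celastrol arrays alone as 2 groups, where 1 day and 4 days share a mean (adjusted p = 0.0883).

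Pax6 is a transcription factor that patterns the eye and the forebrain. On the celastrol arrays it read 8.37, 8.44, 8.38 and 8.45 at 6 h, 8.18, 8.20, 8.14 and 8.19 at 1 day, and 8.03, 7.87 and 8.07 at 4 days. The 3 times did not overlap, and the means stepped down from 8.41 ± 0.043 (SD, n = 4) through 8.18 ± 0.030 (n = 4) to 7.99 ± 0.10 (n = 3). Pax6 was higher at 6 h than later by 0.31 (SE 0.056, 1.24-fold, adjusted p = 0.0195). In vehicle it read 8.42, 8.57 and 8.42 at 6 h and 8.35 to 8.68 later, so that the groups overlapped and the difference was −0.07 (SE 0.063, adjusted p = 0.69). The difference between the time differences of celastrol and vehicle was 0.38 (SE 0.084, adjusted p = 0.178), which did not pass. The celastrol call was lost without 6 h replicate 2 (adjusted p = 0.0998), 6 h replicate 3 (0.0625) and replicates 1 and 2 at 4 days (0.0546 each).

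**Figure D1:**
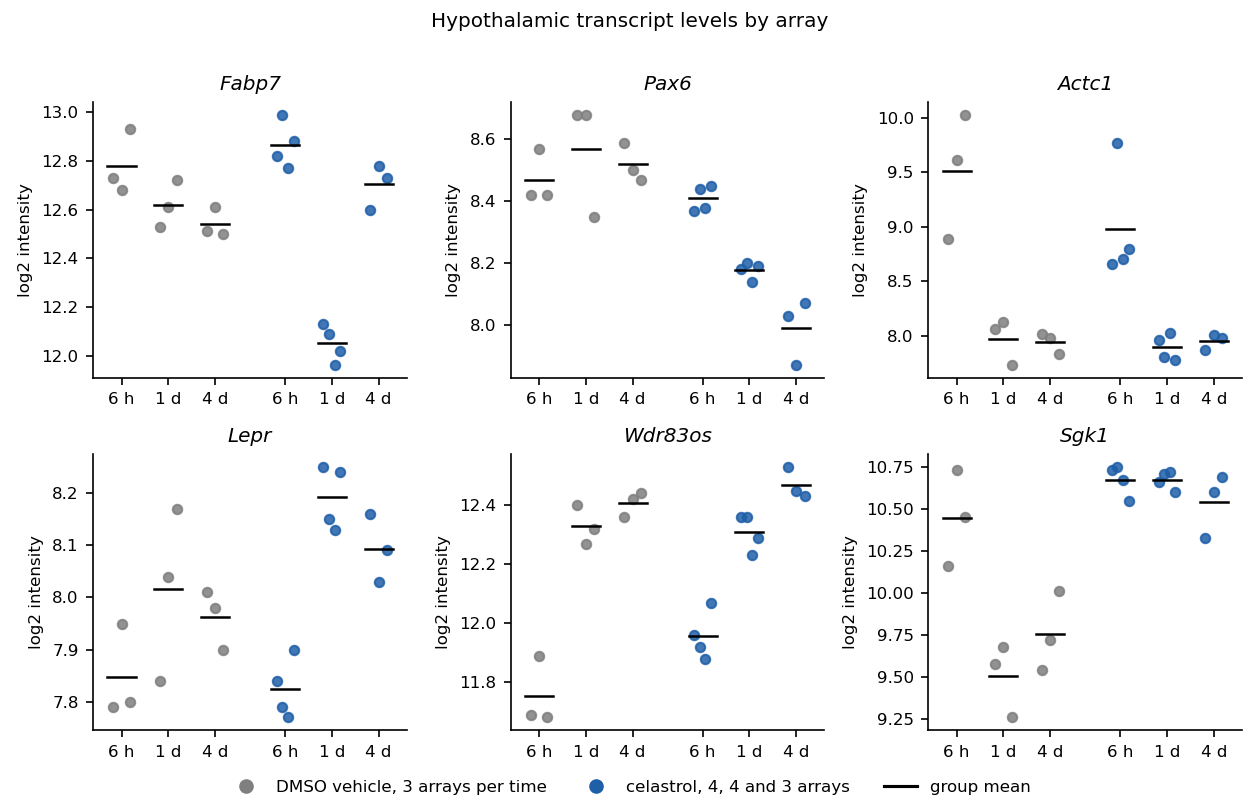
Log2 intensity of 6 genes (vertical axes) on each of the 20 arrays, in vehicle (grey) and celastrol (blue) at 6 h, 1 day and 4 days; points are arrays and black lines group means. Fabp7 drops at 1 day in celastrol and is back near its 6 h level at 4 days, Actc1 is high at 6 h under both treatments, and Sgk1 stays between 10.33 and 10.75 in celastrol while it goes down to 9.26 to 10.01 in vehicle.

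Of the remaining genes chosen for the largest higher values at 6 h, Htr5b, a serotonin receptor, passed in all 20 fits without 1 array. It read 7.68, 7.47, 7.52 and 7.67 at 6 h and 7.10 to 7.46 later, with a median of 7.20, so the arrays did not overlap by a small margin. The later readings lay near the filter on dim genes, at 7.037. The difference was 0.33 (SE 0.054, 1.26-fold, adjusted p = 0.0137), and in vehicle it was 0.04 (adjusted p = 0.826). Nudt9, an ADP-ribose pyrophosphatase, was higher at 6 h by 0.26 (adjusted p = 0.0484), and Wrnip1, which acts at stalled DNA replication forks, by 0.27 (adjusted p = 0.0473). The deubiquitinase Otud6a was higher by 0.31 and the ubiquitin ligase Znrf4 by 0.29 (adjusted p = 0.0484 each). These 4 calls passed in 3 to 6 of the 20 fits that left out 1 array.

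A second set of genes higher at 6 h belongs to heart and skeletal muscle and changed in vehicle as well. Actc1, the actin of the cardiac sarcomere, read 8.66, 9.77, 8.71 and 8.80 on the 6 h celastrol arrays and 7.78 to 8.03 on the later ones, with a median of 7.96. No later array came near the 6 h arrays, and replicate 2 at 6 h stood above its group. The difference was 1.07 (SE 0.19, 2.10-fold, adjusted p = 0.0186), and without that replicate it was 0.81 (adjusted p = 0.066). The 6 h vehicle arrays read 8.89, 9.61 and 10.03 against 7.73 to 8.13 later, a difference of 1.55 (SE 0.21, adjusted p = 0.0039). Myh6, the alpha myosin heavy chain of the heart, was higher at 6 h by 0.42 in celastrol (adjusted p = 0.0195) and by 0.60 in vehicle (adjusted p = 0.0039). Its celastrol call was lost without 6 h replicate 2 (adjusted p = 0.117) and, just, after renewed quantile normalization (0.0506). Tnnt2, cardiac troponin T, was higher by 0.34 in celastrol (adjusted p = 0.0252) and by 0.38 in vehicle (adjusted p = 0.0263).

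The oxygen store myoglobin, Mb, showed 0.34 (adjusted p = 0.0463) in celastrol and 0.41 (adjusted p = 0.0263) in vehicle. The giant sarcomere spring titin, Ttn, named here after its values were seen, showed 0.20 (adjusted p = 0.0484) and 0.27 (adjusted p = 0.0276). Acta1, skeletal actin, was higher in celastrol by 0.29 (adjusted p = 0.0473) and showed 0.18 (adjusted p = 0.264) in vehicle. The calls of Mb, Ttn and Acta1 passed in 11, 5 and 9 of the 20 fits that left out 1 array. Of the list of 12 skeletal-muscle markers, 4 were too dim to test. In celastrol 7 of the 8 tested were higher at 6 h, against 41.1% of all genes. Their median was 0.142, against −0.0188 over all genes and 0.0476 over genes with a mean log2 intensity of 7.04 to 8.24. Acta1 and Mb were the 2 calls of the list, against 0.177% of all genes called higher. The summed linear intensity of the 12, Acta1 and Mb included, was 2670 to 2750 on the 6 h celastrol arrays. On the later ones it was 2360 to 2710, which overlapped. In vehicle the sum was 2530 to 2730 at 6 h and 2330 to 2770 later. The part of muscle RNA in these calls was not tested. In bulk tissue, fewer cells of a type and less RNA per cell cannot be told apart.

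The promoters of both actins are shown since, of the 6 muscle genes named, these hold a CArG box, the element bound by serum response factor in muscle genes. The sequences are RefSeq's upstream bases on GRCm38.p6, 5′ to 3′ on the gene's strand, the CArG box in capitals. Its last base lies 38 bases before the annotated start of Actc1 (chr2:114052876-114052975, minus strand) and 64 before that of Acta1 (chr8:123894776-123894875, minus strand).
Actc1: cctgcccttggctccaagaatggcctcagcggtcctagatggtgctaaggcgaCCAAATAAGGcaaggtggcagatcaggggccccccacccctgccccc
Acta1: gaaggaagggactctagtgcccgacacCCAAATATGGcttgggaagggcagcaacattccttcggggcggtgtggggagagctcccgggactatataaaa
On either strand, a CArG box stood in the 250 upstream bases of 1.47% of 32851 promoter entries, and in none of the entries of Myh6, Tnnt2, Mb and Ttn. A match describes the letters of the window and nothing about use.

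Lepr, the leptin receptor through which the hypothalamus senses fat stores, was lower at 6 h than later. It read 7.84, 7.79, 7.77 and 7.90 at 6 h, 8.25, 8.15, 8.13 and 8.24 at 1 day, and 8.16, 8.03 and 8.09 at 4 days. All 7 later arrays lay above all 4 at 6 h. The difference was −0.32 (SE 0.052, 1.25-fold lower, adjusted p = 0.0135). It was −0.37 against 1 day alone (adjusted p = 0.0171) and −0.26 against 4 days (adjusted p = 0.0543). In vehicle, Lepr read 7.79, 7.95 and 7.80 at 6 h and 7.84 to 8.17 later, overlapping, with a difference of −0.15 (SE 0.059, adjusted p = 0.312). The difference between the treatments' time differences was −0.18 (SE 0.079, adjusted p = 0.407). The celastrol call was lost without 6 h replicate 2 (adjusted p = 0.066) or 6 h replicate 3 (0.0625).

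Of the 22 tested genes of leptin and insulin signalling, 20 were lower at 6 h in celastrol and 2 higher, with a median of −0.0538, and Lepr was the only one that passed. Over all genes 41.1% were higher and 0.552% were called lower, with a median of −0.0188. Genes with a mean log2 intensity of 9.32 to 10.4, a range that holds the list's mean, had a median of −0.0408 in celastrol. In vehicle 8 of the 22 were lower, with a median of 0.0242. Stat3, which carries the leptin signal to the nucleus, showed −0.08 (adjusted p = 0.21), the insulin receptor Insr −0.09 (adjusted p = 0.143), and Leprot, which shares its first exons with Lepr, −0.11 (adjusted p = 0.195). The list's median stayed below 0 when the arrays were centred (−0.0281) and when they were quantile normalized again (−0.0267).

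None of the feeding peptides passed. Npy read 10.16, 10.62, 10.44 and 10.45 at 6 h and 10.42 to 10.83 later, with a median of 10.68, overlapping, and the difference was −0.25 (SE 0.077, adjusted p = 0.0902). Pomc read 8.87, 8.86, 8.74 and 9.34 at 6 h and 8.61 to 9.07 later, a difference of 0.22 (SE 0.11, adjusted p = 0.253). Pmch, the precursor of melanin-concentrating hormone, showed −0.07 (adjusted p = 0.39). Nucb2, the precursor of the satiety peptide nesfatin, showed −0.19 (adjusted p = 0.0665). Of 16 appetite-promoting genes 12 were lower at 6 h (median −0.0455), and of 23 appetite-suppressing genes 13 were (median −0.0472), with 0 calls in either list. Over all genes 8327 of 14129 were lower, with a median of −0.0188, so the second list was near that share. The Agrp gene was not analysed here.

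Wdr83os was lower at 6 h under both treatments and was the steadiest of the lower calls. It encodes a small membrane protein that helps insert other proteins into the endoplasmic reticulum, and Wdr83 is a scaffold of mitogen-activated kinase signalling. On the celastrol arrays Wdr83os read 11.96, 11.92, 11.88 and 12.07 at 6 h, 12.36, 12.36, 12.23 and 12.29 at 1 day, and 12.53, 12.45 and 12.43 at 4 days. In vehicle it read 11.69, 11.89 and 11.68 at 6 h and 12.27 to 12.44 later. The 6 h arrays lay below every later array in each treatment. The difference was −0.42 (SE 0.047, 1.34-fold lower, adjusted p = 0.00022) in celastrol and −0.61 (SE 0.053, adjusted p = 7.64e-06) in vehicle, and it passed in all 20 fits without 1 array.

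Wdr83, its neighbour, named here after its values were seen, read 9.82, 9.75, 9.77 and 9.78 at 6 h and 9.95 to 10.02 later in celastrol, again without overlap. It was lower by −0.20 in each treatment (adjusted p = 0.0186 in celastrol and 0.0279 in vehicle), and the celastrol call was lost without 6 h replicate 2 (adjusted p = 0.0956) or 3 (0.0625). In RefSeq's GRCm38.p6 annotation the genes lie head to head on chromosome 8, Wdr83 at chr8:85075035-85080746 and Wdr83os at chr8:85080963-85082339. The 216 bases between them (chr8:85080747-85080962, plus strand) are shown since both genes were lower together. The capitals mark the CCAAT box, read here on the other strand as ATTGG.
Wdr83-Wdr83os: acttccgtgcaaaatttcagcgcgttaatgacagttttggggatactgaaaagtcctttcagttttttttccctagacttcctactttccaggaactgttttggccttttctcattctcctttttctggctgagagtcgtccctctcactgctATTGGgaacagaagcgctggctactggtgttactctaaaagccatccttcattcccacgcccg
The stretch holds 45.8% G and C, against a median of 52.4% over all 250-base promoter windows, and 7 CG dinucleotides. CCAAT, searched on both strands, stood in 33.8% of promoter entries, so it is a common match.

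Among the other lower genes chosen for their size, Sfrp4 and Ercc8 also passed in all 20 fits that left out 1 array. Sfrp4, a secreted inhibitor of Wnt signalling, read 7.42, 7.53, 7.55 and 7.58 at 6 h and 7.78 to 7.93 later, with a median of 7.88. The groups were well apart, with a difference of −0.35 (SE 0.049, 1.28-fold lower, adjusted p = 0.00353). In vehicle it read 7.81, 7.76 and 7.74 at 6 h and 7.63 to 7.95 later, a difference of 0.02 (adjusted p = 0.93). Ercc8, a recognition factor of transcription-coupled DNA repair, read 7.50, 7.40, 7.51 and 7.41 at 6 h and 7.67 to 7.78 later. Its difference was −0.29 (SE 0.043, adjusted p = 0.00847), against 0.04 in vehicle (adjusted p = 0.797). For neither gene did the difference between the time differences pass (−0.37 for Sfrp4 and −0.32 for Ercc8, adjusted p = 0.124 each).

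Further lower genes named by size were Park7, Phf5a, Katnal2, Pagr1a, Rwdd2b, Cd93 and Pggt1b. Park7, which encodes the oxidative-stress protein DJ-1, differed by −0.29 (adjusted p = 0.0195), and Phf5a, a subunit of the splicing factor SF3b, by −0.31 (adjusted p = 0.0186). Katnal2, a relative of the microtubule-severing katanins, was lower at 6 h in celastrol (−0.26, adjusted p = 0.0154) and in vehicle (−0.25, adjusted p = 0.0303). Without 6 h replicate 2 the adjusted p was 0.0962 for Park7, and 0.0892 for both Phf5a and Katnal2. Without 6 h replicate 3 it was 0.0677 for Park7 and Phf5a and 0.0625 for Katnal2. Cd93, a transmembrane protein of endothelium and myeloid cells, differed by −0.33 (adjusted p = 0.0473), and Pggt1b, a subunit of the enzyme that geranylgeranylates small GTPases, by −0.26 (adjusted p = 0.0484). Pagr1a (−0.32, adjusted p = 0.0374), Rwdd2b (−0.32, 0.0473), Cd93 and Pggt1b passed in 14, 9, 8 and 5 of the 20 fits without 1 array.

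The clock genes were examined because hours of sampling may differ between times. CRY and PER proteins repress the CLOCK-BMAL1 pair that drives them. Cry1 read 8.51, 8.32, 8.23 and 8.42 at 6 h and 8.53 to 8.72 later, with a median of 8.65, so the arrays met without overlapping. Per3 read 9.65, 9.64, 9.69 and 9.76 at 6 h and 9.78 to 9.98 later, with a median of 9.87, likewise without overlap. Cry1 differed by −0.27 (SE 0.058, adjusted p = 0.0482) and Per3 by −0.19 (SE 0.037, adjusted p = 0.0314). In vehicle the values were −0.10 for Cry1 (adjusted p = 0.546) and −0.02 for Per3 (adjusted p = 0.893). Both calls were lost with centred arrays (adjusted p = 0.0582 for Cry1 and 0.052 for Per3) and after renewed quantile normalization (0.0506 and 0.0605). The differences were then −0.246 and −0.259 for Cry1, and −0.167 and −0.153 for Per3. They passed in 7 (Cry1) and 15 (Per3) of the 20 fits without 1 array, with the highest adjusted p, 0.171 and 0.141, without 6 h replicate 2.

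The other clock genes did not pass. Per1 showed −0.08 (adjusted p = 0.244), Per2 −0.13 (0.104), the output gene Dbp −0.09 (0.475), the repressor Nr1d1 0.07 (0.422) and Arntl, which encodes BMAL1, −0.06 (0.332). Of the 17 tested clock repressors and outputs 13 were lower at 6 h, with a median of −0.0395. Over all genes 8327 of 14129 were lower, with a median of −0.0188. Cry1 and Per3 were the 2 calls of that list, against 0.552% of all genes called lower. The Cry1 promoter is shown since Cry1 gave the larger of the clock differences that passed. It is RefSeq's, chr10:85185055-85185154 on GRCm38.p6, minus strand, and the capitals mark the E-box CACGTG, the CLOCK-BMAL1 element, whose last base lies 55 bases before the start.
Cry1: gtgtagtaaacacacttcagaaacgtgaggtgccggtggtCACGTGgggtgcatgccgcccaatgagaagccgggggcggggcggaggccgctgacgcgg
The E-box, which reads the same on both strands, stood in 6.02% of promoter entries, in 1 of the 2 entries of Per1, and in none of those of Per3, Dbp and Nr1d1.

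Glucocorticoid-responsive genes were examined in both treatments as a readout of the hormonal stress response. Sgk1, a kinase gene that glucocorticoids induce, read 10.73, 10.75, 10.67 and 10.55 at 6 h in celastrol and 10.33 to 10.72 later, with a median of 10.66. In vehicle it read 10.16, 10.73 and 10.45 at 6 h, and 9.26 to 10.01 later. The celastrol groups overlapped, with a difference of 0.06 (SE 0.10, adjusted p = 0.77), while the vehicle groups did not, with a difference of 0.81 (SE 0.12, adjusted p = 0.0039). The difference between these differences was −0.75 (SE 0.15, adjusted p = 0.129), which did not pass. Without both vehicle arrays that stood apart the vehicle difference was 0.74 (adjusted p = 0.0707).

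Over the 25 tested glucocorticoid targets, 11 were higher at 6 h in celastrol and 14 lower, with a median of −0.0159 and 0 calls. In vehicle all 25 were higher at 6 h, with a median of 0.312, and 4 passed, against 30 higher calls (0.212%) over all genes. Without both vehicle arrays that stood apart, no gene of the table was called higher at 6 h in vehicle, so these 4 calls were lost. In the same vehicle arrays all 12 thalamus markers were higher at 6 h, with a median of 0.304 and 4 calls, and their part in the glucocorticoid values was not tested. The celastrol median turned to 0.00978 with centred arrays and to 0.0118 after renewed quantile normalization, so its sign depended on the scaling. On the later arrays the list's mean log2 intensity was 9.61 to 10.23 in celastrol and 9.33 to 9.54 in vehicle, and at 6 h it was 9.79 to 9.99 and 9.62 to 10.09. The later celastrol arrays were thus near the 6 h level of both treatments and above every later vehicle array. Fkbp5, a chaperone of the glucocorticoid receptor, showed −0.15 in celastrol (adjusted p = 0.567) and 0.42 in vehicle (adjusted p = 0.275). Lcn2, an acute-phase gene, varied widely, from 7.60 to 8.97 at 6 h and from 8.18 to 10.77 later (−0.79, SE 0.46, adjusted p = 0.329).

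The Sgk1 sequence is shown since 1 of its 6 RefSeq promoter entries (chr10:21993681-21993735, plus strand, GRCm38.p6) holds a full glucocorticoid response element, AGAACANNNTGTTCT, in capitals, its last base 175 bases before that start.
Sgk1: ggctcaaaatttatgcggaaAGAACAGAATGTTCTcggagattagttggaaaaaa
This element, the same read from either strand, stood in 3 of 32851 promoter entries (0.00913%) and in none of those of Fkbp5 and Per1, which says only that these letters are not in those windows.

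**Figure D2:**
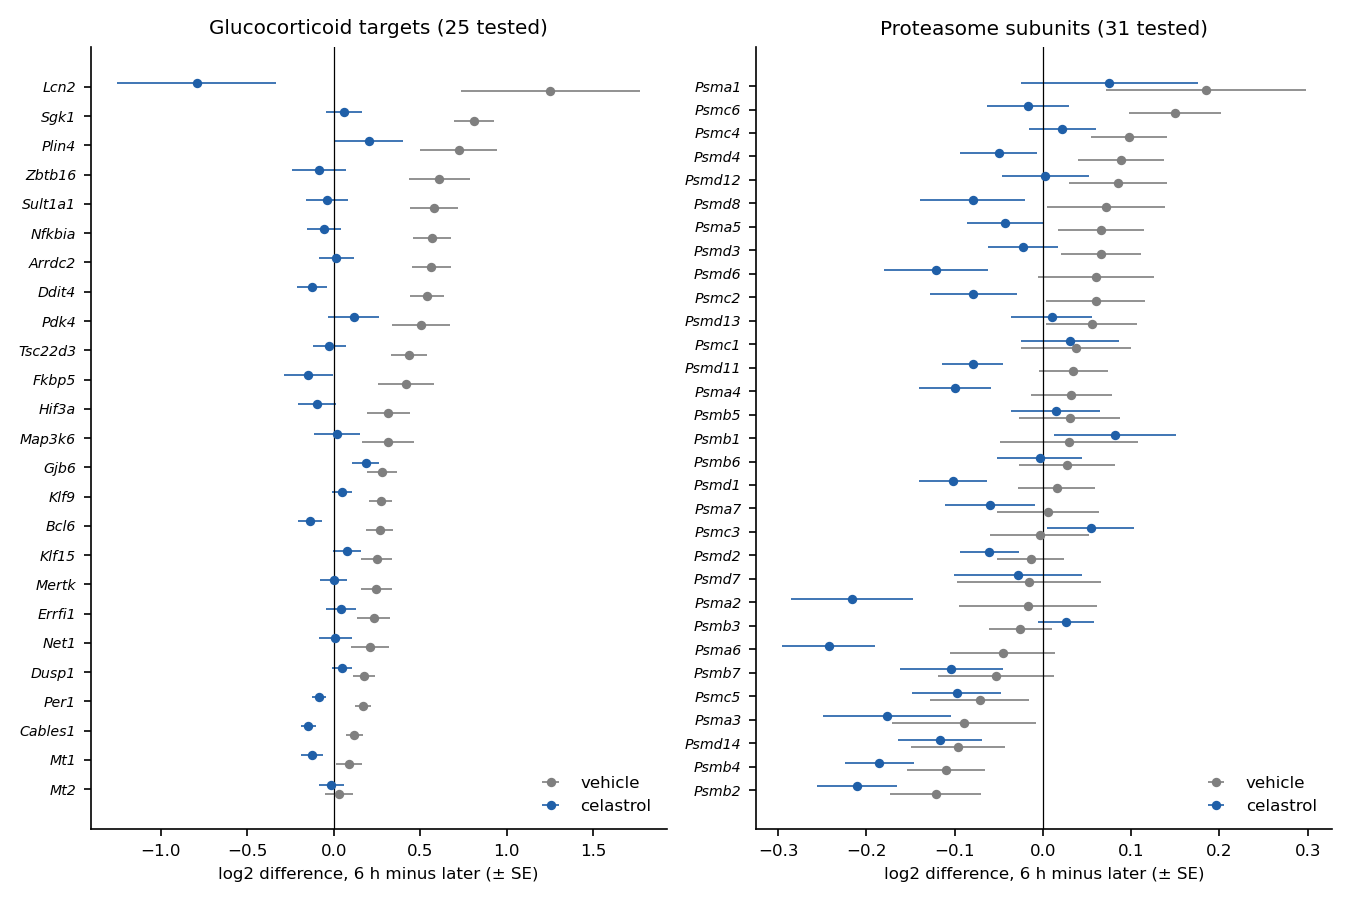
Log2 difference, 6 h minus later, with its SE (horizontal axis) for each of the 25 glucocorticoid targets and 31 proteasome subunits tested (vertical axis), in vehicle (grey) and celastrol (blue). All 25 glucocorticoid targets lie above 0 in vehicle and 11 do in celastrol, and 22 of the 31 proteasome subunits lie below 0 in celastrol against 12 in vehicle.

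The proteasome, which degrades ubiquitin-tagged proteins and whose activity celastrol is known to inhibit, showed small lower values at 6 h. The core subunit Psmb4 read 11.73, 11.70, 11.69 and 11.63 at 6 h and 11.81 to 11.92 later, with a median of 11.87, without overlap. It differed by −0.19 (adjusted p = 0.0473), Psmb2 by −0.21 (adjusted p = 0.0484) and Psma6 by −0.24 (adjusted p = 0.0484). Another core subunit, Psma2, showed −0.22 (adjusted p = 0.0962). Of 31 subunits tested 22 were lower, with a median of −0.0599 and 3 calls. Over all genes 8327 of 14129 were lower, with a median of −0.0188, and 0.552% were called lower. In vehicle 12 were lower, with a median of 0.029 and 0 calls. The 3 calls became 0 with centred arrays and 2 after renewed quantile normalization, where the median was −0.0342 and −0.0202. Psma6, Psmb2 and Psmb4 passed in 4, 7 and 7 of the 20 fits without 1 array, with an adjusted p of 0.172, 0.145 and 0.145 without 6 h replicate 2.

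The stress lists held few calls. Of 21 heat-shock genes 11 were higher at 6 h, with a median of 0.00671 and 0 calls, against 41.1% of all genes higher. Hspa1a, the inducible HSP70 that celastrol raises in cultured cells, read 9.53, 9.53, 9.55 and 9.48 at 6 h and 9.30 to 9.55 later (0.12, adjusted p = 0.281). Hspa2 showed 0.26 (adjusted p = 0.0533) and Cryab 0.18 (adjusted p = 0.0635). In the unfolded protein response the sensor kinase Ern1, IRE1, read 9.07, 9.10, 9.13 and 9.12 at 6 h and 9.21 to 9.30 later. These did not overlap, and the difference of −0.16 (adjusted p = 0.0484) was the only call among 27 genes of that list, against 0.552% of all genes called lower. It passed in 4 of the 20 fits without 1 array and not with centred arrays, where the list held 0 calls. Hmox1, a target of the antioxidant factor NRF2, showed 0.01 (adjusted p = 0.907). Of 21 NRF2 targets 8 were higher at 6 h (median −0.0279), and of 21 NF-kB and cytokine genes 11 were (median 0.00663), with 0 calls in each. With 0.729% of all genes called, 0 calls in lists of this size is near the share over all genes. Fos showed −0.02 (adjusted p = 0.918), and 19 of 26 immediate early genes were higher at 6 h with a median of 0.0277 and 0 calls.

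Among the lists of glia and vessel cells, the oligodendrocyte median lay furthest above that of all genes and the endothelial median furthest below it. Of 14 oligodendrocyte genes 12 were higher at 6 h in celastrol (median 0.088, 0 calls), among them the myelin gene Mog with 0.17 (adjusted p = 0.151), while in vehicle 3 were higher (median −0.123). All 14 endothelial genes were lower at 6 h (median −0.0687, 0 calls), led by the clotting factor carrier Vwf with −0.28 (adjusted p = 0.0557), against 9 of 14 in vehicle. Both signs held with centred and with renormalized arrays. Over all genes 41.1% were higher at 6 h in celastrol. The astrocyte list had a median of −0.0211 (7 of 13 lower), microglia −0.0488 (8 of 13 lower), oligodendrocyte precursors 0.00811 (4 of 9 lower) and mural cells −0.0126 (6 of 10 lower), with 0 calls in each, and the astrocyte and mural medians turned positive under both scalings. The list of 39 respiratory-chain genes had a median of −0.0221 (0.00357 with centred arrays), that of 24 ribosomal proteins −0.0415, and neither held a call.

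Markers of neighbouring tissue were examined as well. The striatum, cortex and hippocampus, meningeal and choroid plexus lists had medians of −0.0464, −0.00927, 0.00458 and 0.095 in celastrol, with 0 calls in each. Of 7 tested pituitary markers 6 were higher at 6 h in celastrol, with a median of 0.224 and 0 calls, against 41.1% of all genes higher. The pituitary hormone genes Gh and Cga read 7.70 to 9.39 and 8.09 to 11.18 at 6 h, and 7.47 to 7.71 and 7.20 to 9.83 later (0.84, adjusted p = 0.0557, and 1.51, adjusted p = 0.279). The summed linear intensity of the 10 measured pituitary genes was 2660 to 5760 at 6 h and 1780 to 2930 later. Pomc is also a pituitary gene and stands in that list, and the part of pituitary RNA in its value was not tested. Thalamus markers were 9.27 to 9.41 in mean log2 intensity at 6 h and 9.23 to 9.35 later in celastrol, but 9.39 to 9.79 against 9.24 to 9.35 in vehicle. Of the thalamus markers in vehicle, Prkcd stood at 1.06 (adjusted p = 0.0168). Of 16 leukocyte markers in the table, 6 were bright enough to test. The T-cell receptor component Cd3e alone passed (0.30, adjusted p = 0.0484), in 3 of the 20 fits without 1 array. Over all genes 0.177% were called higher.

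**Figure D3:**
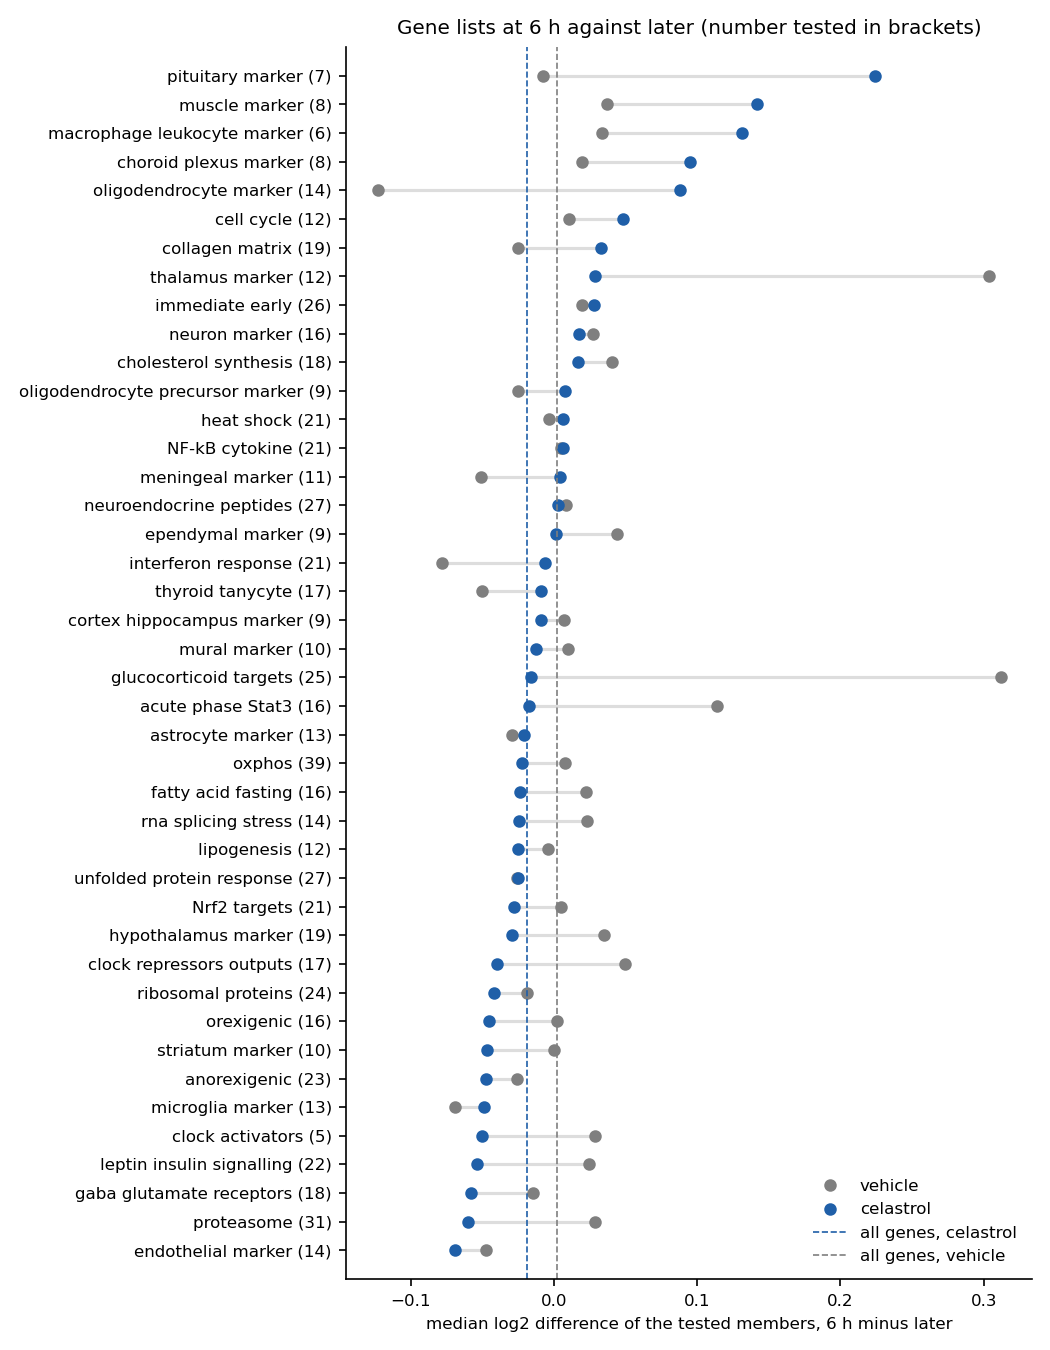
Median log2 difference, 6 h minus later, of the tested members of each gene list with at least 4 of them (horizontal axis), in vehicle (grey) and celastrol (blue), with the medians of all genes as dashed lines. The lists furthest above 0 in celastrol are the pituitary (0.224) and muscle (0.142) markers, and the glucocorticoid targets (0.312) and thalamus markers (0.304) are furthest above 0 in vehicle.

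Probe sets of 2 microRNA genes from the imprinted cluster on chromosome 12 were singled out after their values were seen. The Mir136 probe set read 7.82, 7.46, 7.27 and 7.53 at 6 h and 7.79 to 8.26 later, so 1 array at 6 h overlapped the later range. Its difference of −0.48 (SE 0.11, 1.39-fold lower, adjusted p = 0.0484) was the largest of the 78 lower calls, and passed in 5 of the 20 fits without 1 array. Mir127 read 8.12, 8.0, 8.31 and 8.30 at 6 h, 8.22 to 8.60 at 1 day, and 8.62, 8.86 and 8.46 at 4 days. It differed by −0.33 from later arrays (adjusted p = 0.0635) and by −0.46 from 4 days (adjusted p = 0.0475). These arrays measure longer transcripts, so the values may be those of precursor RNA rather than of the mature molecules. Which RNA the probe sets read was not tested. RefSeq places the hairpins 2411 bases apart, within the span given to Rtl1 (chr12:109564900-109604418, GRCm38.p6). That position does not tell which transcript carries them. The 4 mature sequences are shown, seeds (bases 2 to 8) in capitals, and no pair of them shared a seed.
mmu-miR-127-5p: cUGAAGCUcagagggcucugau
mmu-miR-127-3p: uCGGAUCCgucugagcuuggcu
mmu-miR-136-5p: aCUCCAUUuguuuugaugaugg
mmu-miR-136-3p: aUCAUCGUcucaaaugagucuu

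Splitting the later arrays gave 19 genes against 1 day alone (0.134%), 4 higher (0.0283%) and 15 lower (0.106%), and 126 against 4 days (0.892%), 30 higher (0.212%) and 96 lower (0.679%). These comparisons share the 6 h arrays, so their values are given side by side only. In all 103 genes called against later arrays together, the 1 day and 4 day means lay on the same side of the 6 h mean. The 103 were called from these same arrays, so this follows in large part from the choice and is not separate support. The larger difference was the one at 1 day in 14 of the 25 higher and 30 of the 78 lower genes. Against 1 day, Apeh, a peptidase that removes acetylated amino acids, differed by −0.25 (adjusted p = 0.0147) and by −0.20 against 4 days (adjusted p = 0.0462). Plpp1, a phospholipid phosphatase, differed by −0.30 (adjusted p = 0.0199) and −0.06 (adjusted p = 0.542). Fthl17f, which belongs to a family of near-identical ferritin-like genes and is uncertain for that reason, differed by 0.75 (adjusted p = 0.0284) and 0.19 (adjusted p = 0.459). Against 4 days, Mettl23, a methyltransferase, differed by 0.36 (adjusted p = 0.0322) and by 0.10 against 1 day (adjusted p = 0.4), and Fyb, an adaptor of T cells and myeloid cells, by −0.36 (adjusted p = 0.0322) and −0.06 (adjusted p = 0.593). The counts against 1 day and 4 days ran from 1 to 89 and from 1 to 291 when 1 array was left out. Against 1 day the count was 1 without celastrol 6 h replicate 2 or replicate 3. Against 4 days it was 1 without celastrol 6 h replicate 1 or celastrol 4 day replicate 1.

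The same time difference in vehicle gave 66 genes (0.467%), 30 higher (0.212%) and 36 lower (0.255%), and 11 genes passed in both treatments, all in the same direction. They were the muscle genes Actc1, Myh6, Tnnt2, Mb and Ttn on the higher side, and Wdr83os, Wdr83, Katnal2, Dad1, Erc2 and Vps33b on the lower side. Dad1, a subunit of the enzyme that attaches N-glycans, showed −0.20 in celastrol and −0.27 in vehicle. Erc2, a scaffold of the presynaptic active zone, showed −0.17 and −0.24, and Vps33b, a membrane trafficking factor, −0.22 and −0.26 (adjusted p = 0.0484 for each of the 3 in celastrol). Dad1, Erc2 and Vps33b were named after their values were seen. Of the 25 genes higher at 6 h in celastrol, 20 had the same direction in vehicle, against 58.3% of all genes that were higher, and of the 78 lower genes 65 (83.3%) did, against 53.6%. Across all 14129 genes the time differences of the treatments had a Pearson r of 0.183, a description across genes that share the arrays' processing. Without both vehicle arrays that stood apart, 1 gene passed in vehicle and 705 in celastrol.

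**Figure D4:**
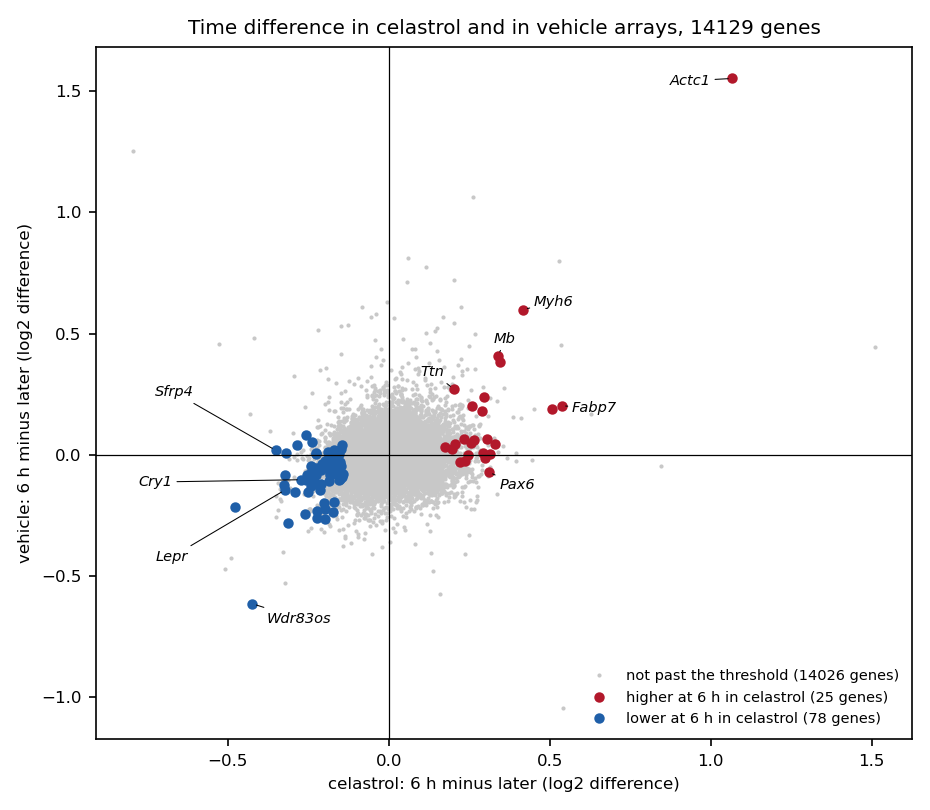
Log2 difference, 6 h minus later, of 14129 genes in celastrol (horizontal axis) and in vehicle (vertical axis); coloured points are the 25 genes called higher (red) and the 78 called lower (blue) in celastrol. Actc1 and Myh6 lie at the upper right and Wdr83os at the lower left, high or low at 6 h under both treatments, while Pax6 and Sfrp4 lie near the line of no difference in vehicle and Fabp7 lies at 0.20.

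A direct test of whether the time difference itself differed between treatments passed for 2 genes of 14129 (0.0142%), with 1601 under an unadjusted p of 0.05. Cyp4f15, a fatty-acid-metabolising cytochrome P450, read 9.39, 9.30, 9.46 and 9.17 at 6 h and 9.43 to 9.65 later in celastrol. In vehicle it read 9.48, 9.64 and 9.47 at 6 h and 9.11 to 9.28 later. It was thus lower at 6 h in celastrol (−0.22, adjusted p = 0.0557) and higher at 6 h in vehicle (0.35, adjusted p = 0.0199), and the difference between the differences was −0.56 (SE 0.082, adjusted p = 0.0202). That call was lost without vehicle 6 h replicate 2 (adjusted p = 0.0577), vehicle 4 day replicate 1 (0.0613) or celastrol 6 h replicate 2 (0.0832).

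Insc, an adaptor that orients the mitotic spindle, read 7.46, 7.52, 7.44 and 7.52 at 6 h and 7.24 to 7.42 later in celastrol, and 7.40, 7.41 and 7.38 at 6 h and 7.52 to 7.66 later in vehicle. The groups did not overlap in either treatment and the order was opposite. The differences were 0.15 in celastrol (adjusted p = 0.0557) and −0.20 in vehicle (adjusted p = 0.0376), and the difference between them was 0.35 (SE 0.056, adjusted p = 0.0427). The Insc call passed in 5 of the 20 fits that left out 1 array, with an adjusted p of up to 0.15 in the others.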

How the data were processed

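RNA of the hypothalamus was labelled with whole-transcript kits and hybridised to Affymetrix arrays, per the labels' protocols. The deposited values are log2 intensities, 1 column per array, and RMA is named in the submitters' processing notes without a version. RMA subtracts background and makes the arrays' distributions alike, so a shift common to most genes is not seen. Of 23492 probe sets, 20228 carried 1 gene symbol, and the brightest was kept for each of 18704 genes. Genes with a mean log2 value under the table's 25th percentile (7.037) were left out, leaving 14129.

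All 20 arrays were fitted in limma 3.58.1 (R 4.3.3) as 6 group means with empirical Bayes moderation. The later celastrol level is the mean of its 7 arrays. Tests were two-sided, with Benjamini-Hochberg adjustment over all genes and a threshold of 0.05. P-values measure the spread between these arrays, whose number limits the precision. On simulated data with 200 changed genes in each of 5 runs of this comparison, 98.2% of changes of 0.5 and 83.4% of changes of 0.3 were recovered, and 3.51% of calls were false. The simulated noise was independent between genes and arrays. It lacked the shared residual component and the shift of array medians seen in the real arrays, so these rates need not hold for them.

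Named were the 12 largest calls per direction whose arrays did not overlap, the 5 smallest p per direction elsewhere, up to 4 members per list and a fixed set of feeding, clock and stress genes. Members and gene lists were chosen with earlier results of these data known. No pair of arrays held identical values. Replicate numbers were not used to pair the arrays in the main fit (a fit with them is given in the closing section).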

Additional observations from a re-analysis of the deposited data

Results flagged for a closer look

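In 10 of 168 groups of 4 arrays (5.95%), over 84 genes, 1 array lay far from the other 3 by Dixon's test (critical value 0.829), where chance gives about 1 in 20. At 6 h in celastrol, Actc1 read 9.77 on replicate 2 against 8.66 to 8.80 on the others. Replicate 1 of the same group read 11.86 for Park7 (others 11.75 to 11.77), 7.88 for Znrf4 (8.06 to 8.09), 11.88 for Oxt (11.77) and 10.20 for Rora (10.08 to 10.10). At 1 day in celastrol, replicate 3 read 11.53 for Nr1d1 (others 11.68 to 11.70), 9.62 for Plin4 (9.41 to 9.44) and 9.46 for Cyp4f15 (9.56 to 9.57). Per2 read 9.78 on replicate 4 (9.56 to 9.58), and Vwf read 9.10 on replicate 2 (8.81 to 8.86).

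The time difference itself differed between celastrol and vehicle for Cyp4f15, by −0.56, and for Insc, by 0.35, in limma's test with adjusted p = 0.0202 and 0.0427.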

How the results depend on the processing

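No named gene past the threshold changed direction under any alternative tried, but medians and counts of calls moved. The median of all genes went from −0.0188 to 0.00695 with centred arrays, and 15 of 43 list medians changed sign with centred or renormalized arrays, the glucocorticoid, unfolded protein response and respiratory-chain lists among them. For 6 h against later celastrol, 103 genes became 33 without the dim filter, 331 with the filter at the 50th percentile, 37 with centred arrays, 289 with an intensity trend and 523 with array weights. Against 1 day, 19 became 47 without the filter, 47 at the 50th percentile, 34 after renewed quantile normalization, 54 with the trend and 102 with weights. Against 4 days, 126 became 11, 388, 22 (centred), 56 (renormalized), 330, 656 and, with celastrol arrays alone, 4. In vehicle, 66 became 119 with the trend and 22 with weights. For the difference of the time differences, 2 became 1 without the filter and 1 with weights. Leaving out 1 array gave 9 to 321 (later), 1 to 89 (1 day), 1 to 291 (4 days), 9 to 90 (vehicle) and 0 to 4 (difference). The cause was not tested.

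Alternatives chosen after seeing the data also moved them. Without both vehicle arrays that stood apart, the counts were 705, 211, 563, 1 and 1 in the same order. With the array median as a covariate they were 3, 2, 58, 64 and 0. This median did not overlap between 6 h and later celastrol, so the covariate can take up the time difference itself. With the mean of the muscle genes as a covariate, 2, 1 and 1 passed in celastrol and 107 in vehicle. Of 39 named genes past the threshold, 5 (Wdr83os, Fabp7, Sfrp4, Ercc8 and Htr5b) passed in all 20 fits that left out 1 array, 34 were lost without celastrol 6 h replicate 2, 30 without replicate 3, 37 with the array median as a covariate, 18 with centred arrays and 13 after renewed quantile normalization.

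Over 46 same-numbered pairs of arrays the mean correlation of the residuals was 0.0236 (−0.356 to 0.518), against −0.00879 over 120 other pairs. Of the 46 pairs, 13 had a correlation over 0.1, and 7 of 20 arrays were closest to their own number. Replicate 1 of the celastrol groups scored 4.72, 5.32 and 4.67 on the leading residual component. Some same-numbered arrays thus deviated together, which a mean near 0 does not show. With the replicate block the counts were 246, 14, 281, 81 and 0. Levels near the filter bear the least reliable differences, and the number of arrays limits the precision.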
